A study of Equus caballus with 6 samples.

Results

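Among the genes expressed strongly in the horse testis both before and after puberty, a small set had normalised read counts that differed little between the stages and by at most 1.42 times between any 2 animals. The set holds 203 of the 58724 genes in the deposited count table. These genes were chosen by a rule on measured values: an Ensembl identifier with a number below 27660, an implied gene length of 151 to 8999 bp, at least 50 CPM (raw count of a gene scaled to a fixed total of gene counts, per library) in all 6 libraries, an absolute log2 ratio of mature to immature mean under 0.2, and an SD under 0.12 of the mean over the 6 libraries. The last 2 conditions were applied to counts divided by median-of-ratios size factors. In each library these give the typical gene with a count in every library a ratio near 1 to its own geometric mean. The stage ratio is not centred by them. Over all genes with a count in every library, the median log2 ratio of mature to immature mean was -0.125 on this scale. Because the rule used the level, the stage ratio and the spread, the values below describe the genes and are no test of their stability.

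The study sequenced poly(A) RNA from whole testis tissue collected when 6 healthy male Mongolian horses were gelded, with 1 library per horse. Testes of 3 sexually immature colts aged 11 to 13 months formed the group before sexual maturation (BSM), and those of 3 sexually mature stallions aged 3 to 4 years formed the group after sexual maturation (ASM). No horse carried a treatment or an engineered allele, and each horse gave tissue at 1 stage. The columns of the mature libraries carry the stage but not the sample titles, so ASM1, ASM2 and ASM3 are named by their columns, each the library of 1 stallion, and were not matched to titles.

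Before puberty the seminiferous tubules contain mostly Sertoli cells and early germ cells, and after puberty they fill with spermatocytes and spermatids, which transcribe a large set of genes of their own. Genes with basic tasks such as translation, protein turnover and energy metabolism are transcribed in nearly all cell types, and some of them serve as reference genes in qRT-PCR. RNA-Seq gives relative amounts, so a gene can be called stable only against a chosen scale, and a change in what the other genes contribute shifts that scale. In whole tissue, fewer cells of a type and less RNA per cell cannot be told apart. The tables do not pair Ensembl identifiers with gene symbols or positions, so the functions of the 203 genes, and the testis cell markers that would check the tissue label, were not analysed here.

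The summed gene counts lay between 14015484 and 15910529 in BSM and between 17195381 and 19721986 in ASM. The size factors ran the other way, between 1.09 and 1.19 in BSM and between 0.860 and 0.960 in ASM. Relative to plain library size, the median-of-ratios scale therefore raised the ASM libraries against the BSM libraries by 0.61 on the log2 scale. The factors rested on 34119 genes with a count in every library, 17830 of which were genes that the authors had assembled outside the annotation.

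Of 20799 Ensembl genes in the range of identifiers and lengths, 2055 reached 50 CPM in every library and are called abundant genes here. The limit on the stage ratio was met by 277 of these, the limit on the spread by 262, and both by 203, or 9.88% of the abundant genes. All 203 passed the expression filter of edgeR. The median of the members was 126 mean CPM in BSM and 81.7 mean CPM in ASM. Their mean FPKM, a level per gene length, ran from 12.2 to 1757 over the 6 libraries, with a median of 52.9. Above the minimum of 50 CPM that the rule required, the members spanned a wide range of levels.

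The gene with the highest mean normalised count was ENSECAG00000016673, with an implied length of 722 bp. Its normalised counts were 15352, 12182 and 10938 in the immature libraries, listed from BSM1 to BSM3, and 13868, 12851 and 12563 in the mature libraries, listed from ASM1 to ASM3. Values of single libraries are given in this order from here on. The stages overlapped, and BSM1 was the highest library. The second was ENSECAG00000007955, of 1823 bp, with normalised counts of 12226, 11437 and 10223 in BSM against 10940, 10072 and 10250 in ASM. ENSECAG00000008164, of 1426 bp, was the third, at 11202, 11384 and 9828 in BSM against 10303, 9430 and 8899 in ASM. Both of these genes had their highest value in a BSM library and their lowest in an ASM library, with overlap between the stages. Per gene length, ENSECAG00000018554 ranked first. It is 311 bp long and had 2389, 2125 and 1978 FPKM in BSM against 1243, 1491 and 1319 FPKM in ASM. Its stage means were 2164 ± 208 and 1351 ± 127 FPKM (SD, n = 3 each). ENSECAG00000016673 followed with stage means of 1308 ± 158 and 879 ± 17.1 FPKM (SD, n = 3 each). FPKM divides by the library total, so these levels per length were lower in ASM although the normalised counts of the same genes overlapped.

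The smallest spread over the 6 libraries was found for ENSECAG00000009259, of 3308 bp. Its normalised counts were 1478, 1541 and 1504 in BSM against 1507, 1469 and 1448 in ASM. The highest library was 1.06 times the lowest, and the SD was 0.0220 of the mean, against 0.0259 from counting error alone. ENSECAG00000015743, of 4582 bp, had normalised counts of 1082, 1088 and 1159 in BSM against 1119, 1100 and 1091 in ASM. ENSECAG00000017836, of 5435 bp, had 1841, 1879 and 1890 in BSM against 1860, 1989 and 1933 in ASM. In these 3 genes the ASM and BSM libraries were intermixed, and the spread was close to what counting error gives, as the choice of the smallest spreads favours.

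**Figure D1:**
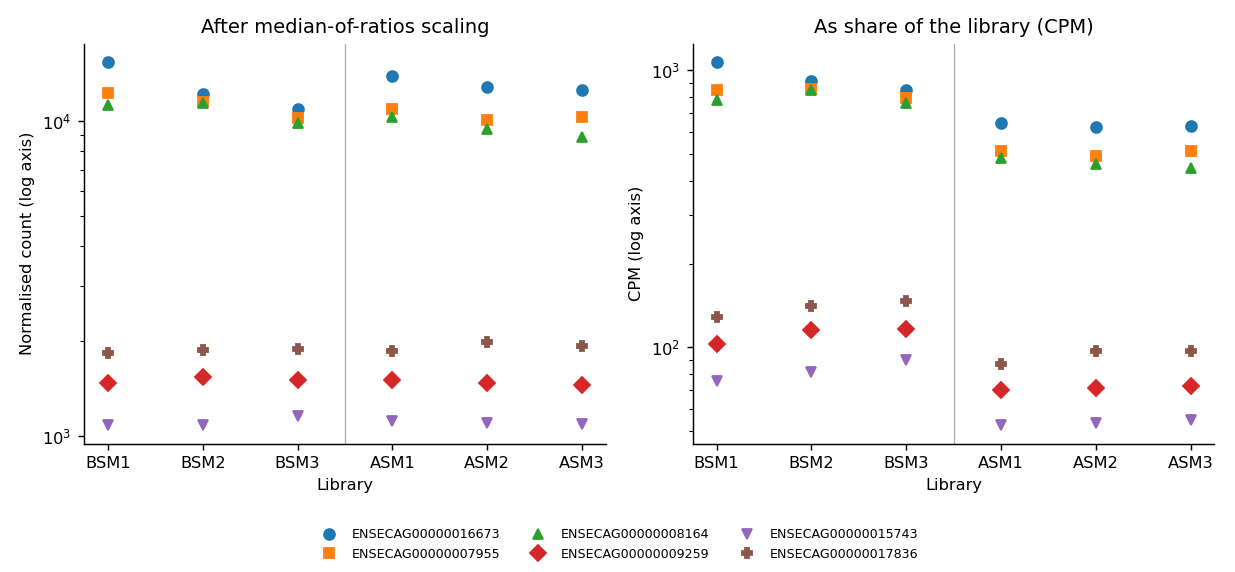
Normalised counts (left) and CPM (right), both on log axes, of the 3 members with the highest mean normalised count and the 3 members with the smallest SD/mean, with 1 point per library. After median-of-ratios scaling the points of a gene lie at nearly the same height in BSM and ASM, whereas as CPM all 6 genes lie lower in every ASM library than in any BSM library.

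Across all 203 genes the SD/mean ran from 0.0220 to 0.119, with a median of 0.0853. Counting error alone would give a median of 0.0242, and the ratio of the measured spread to the counting error had a median of 3.64. The spread between animals and that between library preparations cannot be told apart. Within BSM the median SD/mean was 0.0814, and within ASM it was 0.0696. The value was larger within BSM for 120 of the 203 genes, or 59.1%, and for 66.9% of all abundant genes. Within a stage, 47 members exceeded 0.12 in at least 1 stage although their SD/mean over the 6 libraries did not. The ratio of the highest to the lowest library ran from 1.06 to 1.42, with a median of 1.26.

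Of the 203 members 156 had an SD/mean under 0.12 within both stages, as had 1004 of the 2055 abundant genes, or 48.9%. The stage ratio was within the limit for 13.5% of the abundant genes. Spread and ratio were both limited by the rule, so these counts only describe what it left. The median SD/mean of all abundant genes was 0.105 within BSM and 0.0751 within ASM, but 0.324 over the 6 libraries. By stage ratio, 640 abundant genes lay above 1 on the log2 scale, 632 between 0.2 and 1, 313 between -1 and -0.2, and 193 at or below -1. On the median-of-ratios scale their median log2 ratio of ASM to BSM was 0.52, which lies above the window that the rule allowed. It was -0.05 for genes of the same length range with a count in every library. With library size the abundant genes had a median of -0.09, and 46.2% were higher in ASM, against 68.7% with median-of-ratios factors. The minimum of 50 CPM was set on raw CPM, where ASM lies lower than on the median-of-ratios scale. It can therefore favour genes with higher ratios.

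The libraries did not deviate equally. Relative to each gene's own mean on the log2 scale, the median of the members was 0.04, 0.02 and -0.06 in the 3 BSM libraries and 0.05, -0.001 and -0.05 in the 3 ASM libraries. BSM1 was the highest library for 65 members and ASM1 for 51, while BSM3 was the lowest for 65 and ASM3 for 54. Because the rule limited the stage ratio, these medians could not differ much between the stages.

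**Figure D2:**
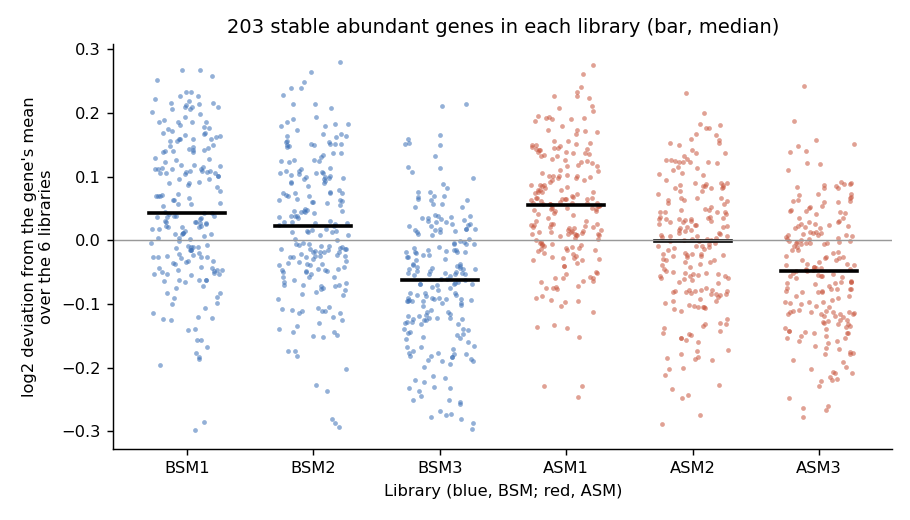
Deviation of each of the 203 genes from its own mean over the 6 libraries (log2, vertical axis) in each library (horizontal axis), with 1 point per gene and a bar at the median. The medians lie between -0.06 in BSM3 and 0.05 in ASM1, and each library reaches both above and below 0.

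At the limits of the rule the values were continuous. ENSECAG00000012364, also the shortest member at 261 bp, had the largest log2 ratio inside the limit, 0.199, with normalised counts of 1305, 1309 and 1141 in BSM against 1525, 1379 and 1408 in ASM. All 3 ASM values lay above the BSM values. ENSECAG00000012777 lay just outside, at 0.203. On the other side ENSECAG00000023680 was inside at -0.197, with normalised counts of 1795, 1990 and 1809 in BSM against 1749, 1542 and 1590 in ASM. ENSECAG00000007978 was outside at -0.201. For the spread, ENSECAG00000021430 was inside at 0.119. ENSECAG00000020547 was outside at 0.1202, with a mean normalised count above that of every member. For the level, ENSECAG00000002972 had 50.1 CPM in its lowest library and ENSECAG00000022045 had 49.98 CPM. The lowest CPM was found in an ASM library for all 203 members, which follows from the limit on the ratio and the stage offset of the scale, so the condition on the level acted through the mature libraries. The longest member, ENSECAG00000016996, had 8313 bp and normalised counts of 3406, 3924 and 3608 in BSM against 3515, 3426 and 3354 in ASM, with overlap between the stages. How reads from near-identical copies of a gene were treated in the counting is not given in the sources used here, so counts of such genes, which can include short ones, are uncertain.

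As a share of the library the same genes were not level. The 203 genes held 3.55%, 3.73% and 3.59% of the gene counts in BSM against 2.35%, 2.36% and 2.34% in ASM. The stage means were 3.63% ± 0.0934 and 2.35% ± 0.00966 (SD, n = 3 each), a ratio of 0.648. Every ASM library lay below every BSM library. The abundant genes as a whole held 46.7% ± 1.07 in BSM and 39.3% ± 0.381 in ASM (SD, n = 3 each), a ratio of 0.841. With library size as the only scale, the log2 ratio of ASM to BSM lay between -0.81 and -0.41 for the 203 genes, with a median of -0.62, and in all 203 the 3 ASM libraries lay below the 3 BSM libraries. This direction was fixed by the choice of genes and is no result about them. The rule held each ratio within 0.2 of 0, and going from median-of-ratios factors to library size moves all genes by the same offset between the stages. The values show what the rule's stability means in CPM and FPKM.

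**Figure D3:**
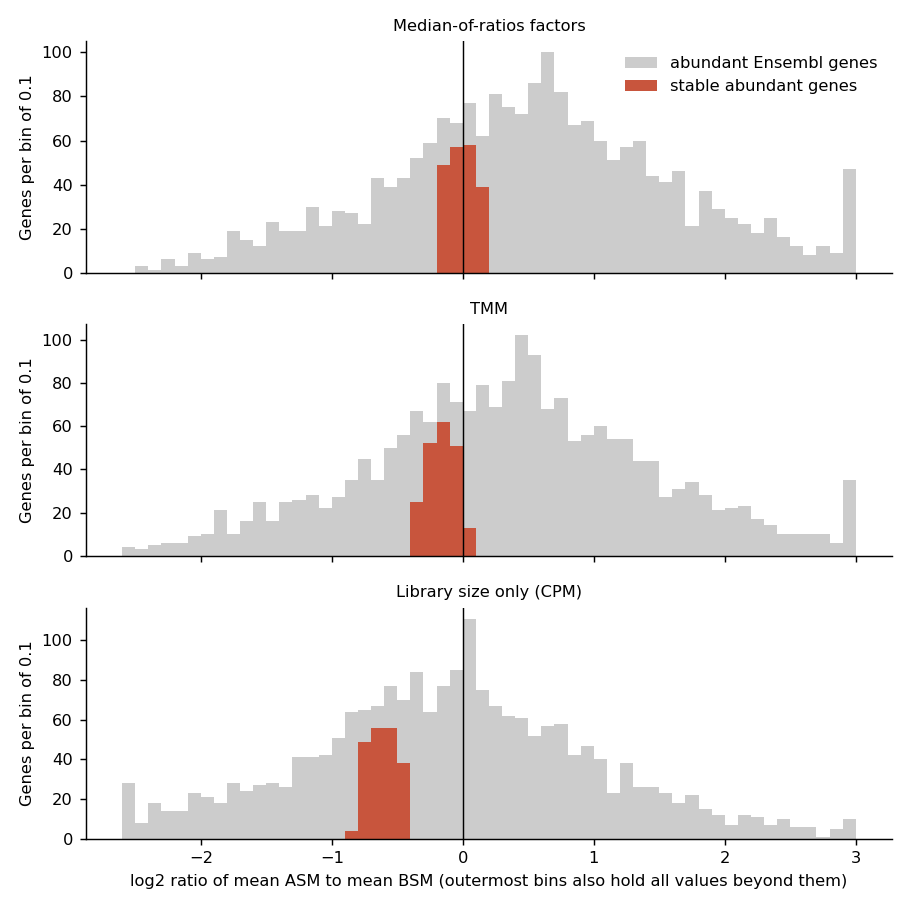
Number of genes (vertical axis) by log2 ratio of mean ASM to mean BSM (horizontal axis, bins of 0.1) for all 2055 abundant Ensembl genes (grey) and the 203 stable abundant genes (red), under median-of-ratios factors, TMM and library size. The members are centred on -0.01, -0.17 and -0.62, and the abundant genes on 0.52, 0.37 and -0.09.

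TMM, the scale that edgeR uses by default, fell between the other two. It raised the ASM libraries by 0.45 (log2) against library size, and the median log2 ratio of the 203 genes was -0.17, with 13 genes above 0 and 190 below. In edgeR's quasi-likelihood test with TMM, 25515 of the 32954 genes tested differed between ASM and BSM at an adjusted p under 0.05, which is 77.4%. Among the 203 members 19 did, all of them lower in ASM, where the background is 36.0% for lower and 41.4% for higher genes. Since the rule limited this ratio, nothing is read from the smaller share. No member was called higher by edgeR or by DESeq2, and 0 were higher at an unadjusted p under 0.05 in either. The count of 19 moved with the scale, the filter and the libraries.

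With median-of-ratios factors in edgeR the count of members called lower was 0 (background 32.8% lower and 43.1% higher), with 0 at an unadjusted p under 0.05. DESeq2 gave 0 as well (background 23.3% lower and 35.7% higher), again with 0 at an unadjusted p under 0.05. With library size it was all 203 (background 44.4% lower and 36.3% higher), where the common offset already placed every member below 0. With TMM and no expression filter beyond 1 count it was 50 (background 29.3% lower). Without 1 BSM library it was 74 when BSM1 was left out (background 35.7% lower), 8 when BSM2 was (background 34.5%) and 31 when BSM3 was (background 33.0%). Without ASM1, ASM2 or ASM3 it was 0 in edgeR, with 0 at an unadjusted p under 0.05, where the backgrounds of lower genes were 29.8%, 30.3% and 30.4%. The members were chosen by their ratio in these same libraries under median-of-ratios factors, so nothing is read from the shares.

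The normalised counts of the stages did not overlap for 24 members, 10 higher and 14 lower in ASM, where the background over all genes tested is 80.2%, made up of 44.9% higher and 35.3% lower. With TMM 88 members did not overlap, all lower in ASM (background 38.4% lower and 43.0% higher). With median-of-ratios factors from Ensembl genes alone 14 were higher and 9 lower (background 45.2% higher and 34.9% lower). The split between higher and lower members moved with the scale. A change of scale moves all genes by a common stage offset, and the rule limited both ratio and spread. Nothing is therefore read from these counts or their split.

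Membership moved with the scale in the same way. With TMM in place of the median-of-ratios factors, 217 genes met the rule, and 118 of them were members, which is 58.1% of the members and 54.4% of the TMM set. With library size, 276 genes met the rule, and 0 of these were members. The stage offset between these scales is wider than the full window of the ratio limit, so the lack of overlap follows from the construction. When the ASM libraries were shifted against the BSM libraries in steps of 0.05 (log2) from -1 to 2, the number of genes meeting the rule was largest at a shift of -0.65, with 256 genes, and smallest at shifts of 1.85 and 2, with 7 each. At a shift of 0 it was 203, in a stretch from -0.3 to 0.15 where it stayed between 197 and 211. The count had no peak at the median-of-ratios scale. The offset of library size corresponds to a shift of -0.61, and the minimum of 50 CPM was set on that same scale. The place of the peak therefore does not show which scale is right. This series of shifts was chosen after the data had been seen.

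**Figure D4:**
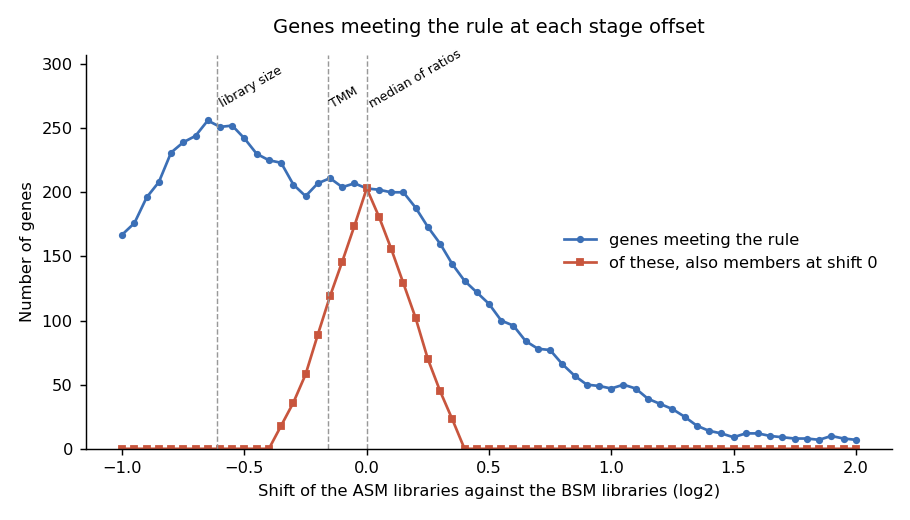
Number of genes meeting the rule (blue) and number of these that are among the 203 members (red) when the ASM libraries are shifted against the BSM libraries by the log2 amount on the horizontal axis, with dashed lines at the offsets of library size, TMM and median of ratios. The count is largest, 256, at a shift of -0.65, where 0 members remain.

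The members were also chosen again with 1 library left out. For each library in turn, the rule was applied to the other 5, and the left-out library was compared with their mean. Between 202 and 248 genes were chosen in this way. Their median absolute log2 deviation in the left-out library was 0.16, 0.12 and 0.17 when a BSM library was left out and 0.09, 0.11 and 0.15 when an ASM library was. For all genes abundant in the other 5 libraries it lay between 0.41 and 0.58. The left-out value was within 0.2 of the mean for 56.6% of the chosen genes in BSM3, the lowest share, and for 80.3% in ASM1, the highest, against 18.3% to 25.3% of the abundant genes. A deviation of 1 or more was found for 1 chosen gene, in BSM2, and in the other 5 libraries for 0, while in each library between 169 and 674 abundant genes deviated that far. The gap between chosen and abundant genes was in part set by the choice, since the other 5 libraries include 2 of the same stage and the rule had limited the stage ratio in them, while the deviation of an abundant gene includes its full stage difference. It is therefore no test of stability. Some chosen genes left the window of 0.2 in every library. The left-out library was scaled with its own counts.

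**Figure D5:**
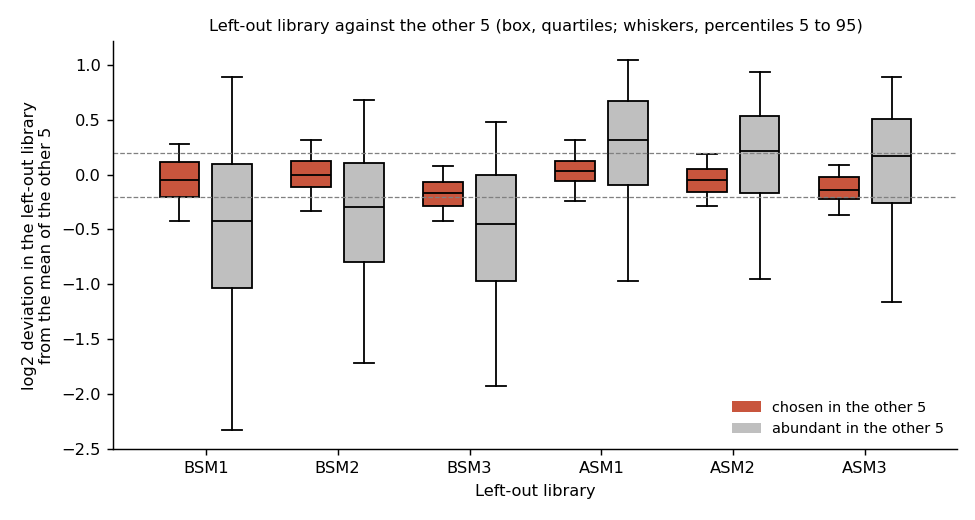
Log2 deviation in the left-out library from the mean of the other 5 (vertical axis) for genes chosen by the rule in the other 5 (red) and for genes abundant in the other 5 (grey), by left-out library (horizontal axis); boxes give quartiles and whiskers the percentiles 5 to 95. The red medians lie between -0.17 in BSM3 and 0.03 in ASM1, and the grey medians between -0.45 and 0.32.

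Leaving out a library also changed which genes were chosen. Of the 203 members, 130 were chosen again without BSM1, 177 without BSM2, 150 without BSM3, 179 without ASM1, 174 without ASM2 and 159 without ASM3. In all 6 choices 72 members came back, or 35.5%, and 66 of the 72 also met the rule with TMM. Their median SD/mean was 0.0716, against 0.0928 for the 131 other members, and their stage ratios stayed within 0.12 on the log2 scale, both of which follow in part from the repeated choice. Among the genes named above, ENSECAG00000015743, ENSECAG00000017836 and ENSECAG00000002972 were among the 72, whereas ENSECAG00000009259, with the smallest spread of all, was not. The stage offset against library size moved with the library left out, from 0.49 without BSM1 to 0.69 without ASM3.

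The share of members among the abundant genes was also counted by level and length. Of 613 abundant genes with a mean between 50 and 100 CPM, 89 were members, or 14.5%. The share was 9.13% between 100 and 200 CPM, 6.54% between 200 and 500 CPM and 4.58% from 500 CPM upwards, where 7 of 153 were members. By implied length the shares were closer, with 9.03% below 1000 bp, 8.10% from 1000 to 2000 bp, 11.4% from 2000 to 4000 bp and 11.3% from 4000 bp upwards. The median length was 2117 bp for the members and 1914 bp for all abundant genes. Differences between these shares were not tested. A gene with a mean of 50 to 100 CPM can differ little between libraries without falling below the minimum of 50 CPM, so the shares by level are in part set by that minimum.

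The same limits on level, ratio and spread were met outside the range of identifiers and lengths too. Among assembled genes 60 were abundant and 4 met both limits, or 6.67%. Among Ensembl genes of 9000 bp or more 43 were abundant and 6 met both, or 14.0%. Of the 5 abundant genes of 150 bp or less 0 met them. Among Ensembl genes with a number of 27660 or more 15 were abundant and 2 met both, or 13.3%. These shares rest on few genes, and their difference from the 9.88% of the members was not tested.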

How the data were processed

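The authors aligned the clean paired-end reads with TopHat 2.0.12 to the Ensembl horse genome, assembled further transcripts with Cufflinks and counted reads per gene with HTSeq 0.6.1. The deposited counts are raw whole numbers. The deposited FPKM values were derived by the authors from count and gene length. The implied length, computed from a gene's count, its FPKM and the library total, was a whole number (within 0.01 bp) for all 53514 genes that had one. The Ensembl release and the strand setting are not given in the sources used here.

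Size factors were medians of ratios over genes with a count in all 6 libraries, and the SD used n minus 1. The members, the rule and the lists were chosen with earlier results of these data known. Stages were compared with edgeR 4.0.16 (R 4.3.3): filterByExpr, TMM, quasi-likelihood F test, Benjamini-Hochberg adjustment over all genes tested, threshold 0.05. DESeq2 1.42.0, other scalings, filters and limits, and leaving out each library were the alternatives. The fits were tested on simulated data in which few genes changed, in equal numbers up and down, so the choice of scale was not tested. Replicates are single horses, and no pair of libraries agreed within sampling noise (chi-square per degree of freedom at least 13.2 for each pair). Counting errors cover counting only. Genes were named by rule: the 3 highest, the 3 with the smallest SD/mean, the 2 highest in FPKM, the shortest, the longest, and those nearest each limit. A gene table of another horse assembly held no Ensembl identifiers, so symbols, planned marker and pathway lists and sequences were not used.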

Additional observations from a re-analysis of the deposited data

How the results depend on the processing

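The number of genes meeting the rule, 203, moved by over 1.5 times with a minimum of 25 CPM (367 genes), a minimum of 100 CPM (61 genes) and a log2 ratio limit of 0.1 (115 genes), as follows from the construction of these settings, and ranged from 202 to 248 without 1 library. With the SD divided by n, an alternative chosen after seeing the data, it was 222. Members called lower in ASM numbered 19 with TMM, 0 with median-of-ratios factors in edgeR, 203 with library size, 0 with DESeq2 and 50 with every gene of at least 1 count, and from 0 to 74 without 1 library. The median log2 fold change of all 203 members, -0.17, was -0.010 with median-of-ratios factors, -0.62 with library size, -0.010 with DESeq2, -0.27 without the filter and from -0.31 to -0.026 without 1 library. The share of counts on the members was 1.28 percentage points lower in ASM (-1.28), -1.37 among counts on Ensembl genes, and from -1.31 to -1.22 without 1 library. The median deviation of a left-out library, 0.138, was 0.123 with TMM and 0.110 with library size, each for genes chosen anew on that scale. For the abundant genes it was 0.475 with median-of-ratios factors, 0.445 with TMM and 0.436 with library size. Counting also the genes called higher and lower over all genes and the members called higher (0 in every fit), 23 of 35 alternatives that keep all libraries left the count within 1.5 times or the value within 1 SD. That tally includes outcomes limited by the rule, such as the 0 members called higher. It also includes the 276 genes of library size, which share 0 genes with the members. The tally is therefore no measure of robustness. Without 1 library, between 13752 and 15649 of all genes were called higher and between 10938 and 13061 lower. No paired analysis was possible because each horse gave tissue at 1 stage, the sample titles of the stages share no numbers, and the numbers of the libraries tie no horses together. Each member had at least 865 counts in every library.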
